A study of Macaca mulatta with 7 samples.

Results

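The spared lumbar spinal cord of a rhesus monkey (Macaca mulatta) 14 days post injury (dpi) was compared with the lumbar cord of an uninjured monkey by single-nucleus RNA-seq, which counts the RNA of individual nuclei as unique molecular identifiers (UMIs). Members were the nuclei of these 2 libraries with at least 1000 UMIs and over 500 genes. They numbered 9699 of 10145 barcodes at 14 dpi and 11408 of 11735 in intact lumbar cord, out of 67087 nuclei that met the same limits in all 7 libraries of the series. After the removal of likely doublets, 9214 and 10838 nuclei remained.

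The injured animal, aged 7 years, had a complete transection at T9 with a block of cord removed, and its lumbar tissue was taken far below the gap. The uninjured animal, aged 5 years and labelled untreated, also gave a cervical and a thoracic library, and these 2 served here only to widen the range of intact values. All animals were female, and 1 animal a group was sequenced, by the study's account, with 1 library for each tissue. Injury, animal, age and library preparation therefore cannot be told apart in any difference below. Values quoted at 7 dpi, 30 dpi and 6 months come from other injured animals, aged 7, 6 and 6 years. Between these libraries time, animal and age cannot be told apart either. With 1 library a side nothing could be tested against replicate spread, and intervals describe counting error alone.

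The lumbar cord holds the motor and sensory circuits of the hind limbs. After a thoracic transection these circuits keep their cells but lose the axons that descend from the brain, and long fibres cut at the lesion degenerate along the cord. Microglia, the resident macrophages of the cord, clear myelin and axon debris and respond to interferons and cytokines. Oligodendrocytes wrap axons in myelin, oligodendrocyte precursor cells (OPCs) divide and give rise to them, and astrocytes supply transport and support functions and take on a reactive state around damage.

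For each class of nuclei, the UMIs of its nuclei were added up within a library and scaled by the class total to CPM, the usual unit of counts corrected for depth. A gene was considered where its mean level would give at least 20 UMIs in the smaller class total. It was called higher or lower at 14 dpi where log2(CPM + 1) differed from intact lumbar cord by at least 1, a 2-fold difference, and the value lay outside the range of the 3 intact libraries. A second count was limited to genes at own level. Their CPM was no less than 0.2 of the highest in any other named class with at least 50 nuclei, in the library where the gene was higher. T cells held 99 nuclei at 14 dpi and 17 in intact lumbar cord, so only genes higher at 14 dpi were set against them. The own-level limit was added after the data were seen, because RNA freed from broken nuclei of a common class can be counted at a low rate in all others. Ratios below are log2 ratios of CPM, 14 dpi to intact lumbar, with 95% exact conditional binomial intervals. Where 3 intact values are given, they stand in the order cervical, thoracic and lumbar, and a gene said to go from one level to another is given in intact lumbar cord and then at 14 dpi.

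The deposited matrices held 110364508 UMIs at 14 dpi and 150987900 in intact lumbar cord. The median UMI count of a kept nucleus was 5344.5 and 6186.5. Of the nuclei at 14 dpi, 21 (0.217%) carried a barcode also seen in intact lumbar cord. Nuclei in clusters without a name made up 3.64% at 14 dpi and 6.57% in intact lumbar cord. The label of the tissue was checked on HOX genes of the caudal cord in neurons. HOXD10 was at 0, 0 and 2.100 CPM in intact cord and 1.01 CPM at 14 dpi, and HOXC10 at 0.0198, 0.446 and 2.89 CPM in intact cord and 1.66 CPM at 14 dpi. The level of both at 14 dpi was above the cervical and thoracic values.

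Clusters were named from marker genes as microglia/macrophage-, oligodendrocyte-, neuron-, astrocyte-, OPC- and T cell-like, and the suffix is left out below. Microglia/macrophage nuclei, called microglia here, made up 50.4% (49.4 to 51.4) of kept nuclei at 14 dpi and 19.4% (18.7 to 20.2) in intact lumbar cord, a difference of 31.0 points. The shares in intact cervical and thoracic cord were 18.1% and 23.3%, so the value at 14 dpi lay above all 3 intact libraries. Oligodendrocytes made up 20.7% against 31.9%, astrocytes 2.76% against 9.02% and OPCs 2.55% against 6.72%, and each share at 14 dpi was below the 3 intact libraries. Neurons made up 18.9% against 26.2%, inside the intact range of 7.22% to 26.2%. T cells numbered 99 (1.07%) against 17 (0.157%), also inside the intact range, since thoracic cord held 1.11%. Shares add to 100%, so one cannot move alone, and they hold no count of cells per volume of tissue.

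**Figure D1:**
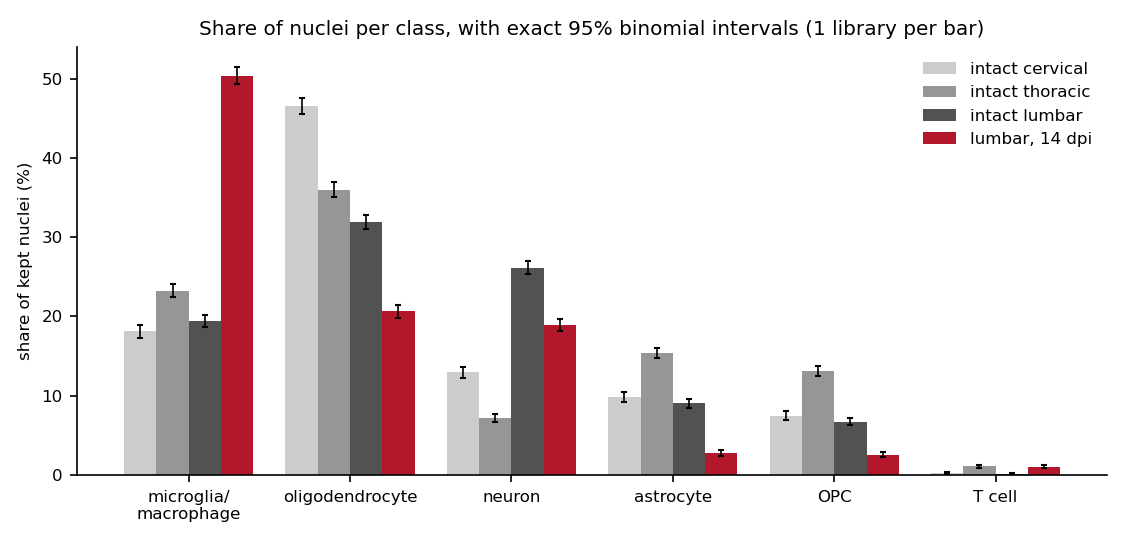
Share of kept nuclei (%) in each class for the 3 intact libraries (grey) and the lumbar library at 14 dpi (red), with exact 95% binomial intervals as error bars. The microglia/macrophage bar at 14 dpi stands at 50.4%, above the 3 intact bars, and the oligodendrocyte, astrocyte and OPC bars at 14 dpi are the lowest of their class.

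Microglia held the largest share of called genes of the 5 classes. Of 11429 considered genes, 588 (5.14%) were higher and 478 (4.18%) lower at 14 dpi. Among the 9805 at own level these were 497 (5.07%) and 395 (4.03%). The nuclei behind the 2 sides came from different clusters. At 14 dpi 4120 of 4644 nuclei lay in a cluster led by SRGN, FOS, TNF and CD74, and 355 in one led by ITGAX, GPNMB and MSR1. In intact lumbar cord 1772 of 2105 lay in a cluster led by MRC1, FKBP5 and CX3CR1, and 286 in one led by NR4A3, NR4A2 and CXCL8. Each of these clusters was mostly of intact or of injured libraries, so a cluster here may be a library as much as a state.

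The widest gap below the intact range in microglia was that of CDH13 (ENSMMUG00000020114, chromosome 20, 69645940 to 70810617, plus strand), which encodes T-cadherin, an adhesion protein held at the membrane by a lipid anchor. It was at 1013, 1117 and 1499 CPM in intact cord and 4.74 CPM at 14 dpi, with a log2 ratio of -8.31 (-8.61 to -8.02). The 3 intact values were all above 1000 CPM, and the other injured libraries held 9.52 CPM at 7 dpi, 3.55 at 30 dpi and 12.3 at 6 months. Among the other genes with the widest gap below the intact range were KLRF2, a lectin-like receptor gene (40.2 to 0.765 CPM), EML1, which encodes a microtubule-binding protein (240.1 to 15.7 CPM), GNB5, a G protein beta subunit (109 to 8.23 CPM), and TMC8 (12.4 to 0.287 CPM). KLRF2 was also low at 7 dpi, at 0.254 CPM, and at 6 months stood at 27.2 CPM, closer to its intact range of 33.9 to 40.2.

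On the other side, PDZRN3 (chromosome 2, 129500418 to 129740849, minus strand), which encodes a ubiquitin ligase with PDZ domains, was at 2.63, 2.48 and 0.8099 CPM in intact cord and 114 CPM at 14 dpi, with a log2 ratio of 7.14 (6.01 to 8.59). It was at 0.444, 0.709 and 0.6403 CPM in the other 3 injured libraries, so the high level was seen in the 14 dpi library and in none of the other 6. T cells of the same library held 540.1 CPM. PROK2, which encodes a secreted prokineticin, had 0 UMIs in intact lumbar cord, 356 UMIs (17.03 CPM) at 14 dpi and was at 0 CPM in the other 3 injured libraries. PTPN14, a tyrosine phosphatase gene, went from 1.08 to 38.4 CPM and SPTLC3, a serine palmitoyltransferase subunit gene, from 1.75 to 43.96 CPM, and their values at 30 dpi were 0.512 and 2.44 CPM. LIPN, a gene of the acid lipase family, was high in several injured libraries. It went from 1.62 to 61.8 CPM, and stood at 80.7 and 97.6 CPM in the 7 dpi and 30 dpi libraries but at 0.1601 CPM after 6 months.

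**Figure D2:**
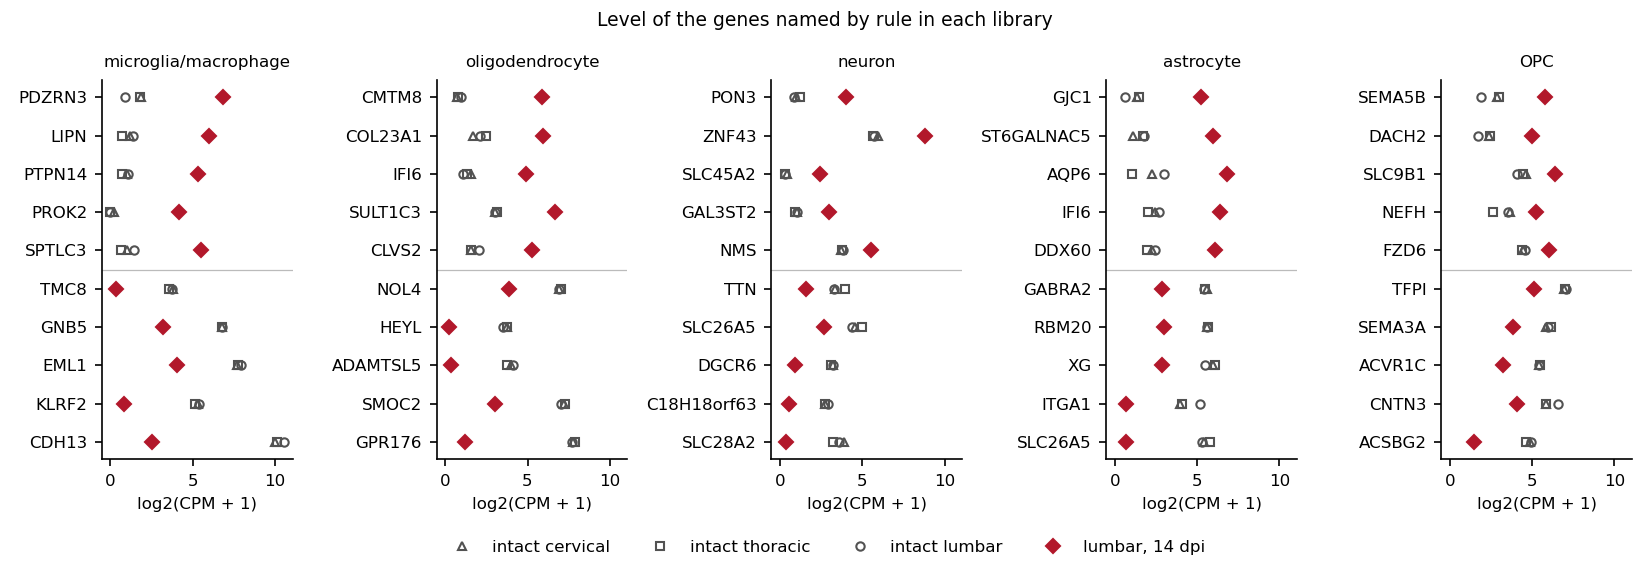
Level, as log2(CPM + 1), of the 5 genes with the widest gap above and the 5 with the widest gap below the intact range in each class, with open symbols for the 3 intact libraries and red diamonds for 14 dpi. The 3 intact symbols of most genes lie close together, and the red diamond stands apart from them, since the genes were chosen for this gap.

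Of the 13 considered genes of homeostatic microglia, 0 were higher and 3 were lower, with a median log2 ratio (CPM + 1) of -0.46 against -0.09 over all considered genes. Besides CDH13 these were P2RY13, a receptor for ADP (140.4, 121 and 140.4 CPM in intact cord and 60.4 CPM at 14 dpi), and GPR34, a receptor for lysophosphatidylserine (488, 346 and 583 CPM in intact cord and 277 CPM at 14 dpi). P2RY13 and GPR34 were expressed at about the same order of size on both sides, unlike CDH13. TGFBR1, a receptor chain for transforming growth factor beta, was at 878 to 928 CPM. Scavenger receptors held calls in both directions. MRC1, the mannose receptor CD206, was at 521, 454 and 726 CPM in intact cord and 106 CPM at 14 dpi. CD163, the receptor for hemoglobin with haptoglobin, went from 805 to 285 CPM and LYVE1, a hyaluronan receptor, from 15.7 to 0.383 CPM. In the scavenger and phagocytic receptor list, of which 16 genes were considered, these 3 were the ones called lower. MSR1, SIGLEC1, CLEC7A and F13A1 were called higher, with a median of 0.07 over the list. The shares over all considered genes in microglia, beside this list and the homeostatic one, were 5.14% higher and 4.18% lower. F13A1 encodes a coagulation factor chain and not a receptor. SIGLEC1, a sialic acid receptor of activated macrophages, went from 5 UMIs to 333 (0.675 to 15.9 CPM).

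Genes of disease-associated microglia, which handle lipids and lysosomes, held calls in the higher direction. Of 23 considered, 11 were called higher and 0 lower, with a median of 0.91, against 5.14% and 4.18% over all considered genes. GPNMB, a glycoprotein of phagocytes full of lipid, was at 1.52, 19.5 and 4.46 CPM in intact cord and 151.1 CPM at 14 dpi. LGALS3, the lectin galectin-3, went from 5.805 to 59.98 CPM, CHIT1, a chitinase of activated macrophages, from 1.08 to 13.6 CPM, and ITGAX, the integrin CD11c, from 77.8 to 344 CPM. APOE, the lipid carrier, went from 127 to 262 CPM, a smaller step. The tetraspanin gene CD9 of the same list was at 5.805 to 5.79 CPM.

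Among 18 considered cytokine and chemokine genes, 9 were called higher and 2 lower, with a median of 0.91. Among 17 at own level these were 8 and 2. Over all considered genes in microglia 5.14% were higher and 4.18% lower. TNF (chromosome 4, 137934540 to 137937146, minus strand), the tumour necrosis factor gene, was at 72.1, 28.5 and 40.2 CPM in intact cord and 280.2 CPM at 14 dpi, with a log2 ratio of 2.80 (2.63 to 2.97). CCL2, which attracts monocytes, went from 21.5 to 100.2 CPM, CCL8 from 11.2 to 63.1 CPM, and IL33, an alarmin, from 3.24 to 32.2 CPM. By the study's account, IL33 in the monkey cord was limited to astrocytes of the white matter. Whether astrocyte RNA entered the microglial value of IL33 was not tested. The 2 lower genes were IL1B (226 to 91.7 CPM) and CXCL8 (66.01 to 26.2 CPM), which encode interleukin-1 beta and interleukin-8. IL1B and CXCL8 were among the 10 leading genes of the smaller intact cluster, and TNF among those of the larger cluster of 14 dpi. TGFB1 was at 439 to 403 CPM. Of 14 considered NF-kB genes, 4 were higher, among them the survival gene BCL2A1 (3.24 to 30.3 CPM) and the adhesion gene ICAM1 (4.46 to 24.4 CPM), and SOD2, a mitochondrial superoxide dismutase, was at 23.1 to 23.1 CPM.

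Class II antigen presentation genes were higher in microglia. Of 8 considered, 5 were called higher and 0 lower, with a median of 1.29, against 5.14% and 4.18% over all considered genes. CD74, the invariant chain that escorts class II molecules, was at 316, 262 and 417 CPM in intact cord and 1341 CPM at 14 dpi, and CIITA, the master activator of class II genes, at 70.6, 73.95 and 55.9 CPM in intact cord and 162 CPM at 14 dpi. MAMU-DPA went from 12.2 to 68.8 CPM. The 3 class I genes called higher out of 10, B2M, PSMB8 and NLRC5, were all far higher in T cells of the same library. B2M stood at 255 CPM in microglia and 1653 CPM in T cells, so the own-level limit left it out, and 0 of the 7 class I genes at own level were called. T cells were few in that library, with 246273 UMIs against 20905268 in microglia. Whether T cell RNA entered the microglial values of these 3 genes was not tested. Outside the list, Mamu-B (95.03 to 250.1 CPM in microglia) and AG (40.23 to 96.87 CPM) were called higher in all 5 classes. MHC genes have near-identical copies, and how reads were split among them is uncertain.

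Immediate early genes, which are induced within minutes of a stimulus, were among the highest lists in microglia. Of 17 considered, 11 were called higher and 0 lower, with a median of 1.30, against 5.14% and 4.18% over all considered genes. FOS (chromosome 7, 137394931 to 137397381, plus strand) was at 46.6, 160 and 68.98 CPM in intact cord and 613 CPM at 14 dpi, JUN at 66.7, 54.1 and 35.2 CPM in intact cord and 269.6 CPM at 14 dpi, and FOSB at 12.04, 60.3 and 40.1 CPM in intact cord and 187 CPM at 14 dpi. All 3 stood above the intact range, as a call requires, and the intact values for FOS spread from 46.6 to 160 CPM. ATF3, a stress factor of the same list, was at 12.8 to 9.76 CPM. Of 18 considered heat shock and chaperone genes, 0 were called in either direction, with a median of -0.27. At 5.14% higher and 4.18% lower over all considered genes, a count of 0 is near the background for a list of this size. The chaperone gene HSPA5 went from 26.9 to 42.8 CPM.

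Genes induced by glucocorticoid hormones held more calls lower than higher. Of 19 considered, 9 were called lower and 1 higher, with a median of -0.70, against 4.18% and 5.14% over all considered genes. FKBP5 (chromosome 4, 133793958 to 133913446, plus strand), a co-chaperone of the glucocorticoid receptor, was at 3527, 2778 and 4092 CPM in intact cord and 574 CPM at 14 dpi, with a log2 ratio of -2.83 (-2.86 to -2.80). DDIT4, an inhibitor of mTOR signalling, was at 207, 106 and 179.8 CPM in intact cord and 20.3 CPM at 14 dpi, TXNIP, which restrains glucose uptake, went from 633 to 139 CPM, and KLF9 from 56.8 to 14.2 CPM. The receptor gene itself, NR3C1, was at 642 to 655 CPM. The 1 gene called higher was the kinase gene SGK1 (24.2 to 116 CPM), which was not at own level.

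Cholesterol and fatty acid synthesis genes also held more calls lower than higher in microglia. Of 28 considered, 14 were called lower and 1 higher, with a median of -0.96, and among 23 at own level 13 and 1. Over all considered genes 4.18% were lower and 5.14% higher. INSIG1, a brake on sterol synthesis, was at 55.4, 52.1 and 76.5 CPM in intact cord and 18.99 CPM at 14 dpi, and MSMO1, a sterol oxidase, at 56.1, 55.8 and 63.6 CPM in intact cord and 18.6 CPM at 14 dpi. Both were below all 3 intact libraries, as a call requires. The 1 gene called higher was ELOVL6, a fatty acid elongase (58.05 to 146 CPM). The sterol reductase gene TM7SF2 was at 8.23 to 8.23 CPM.

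Of the remaining lists in microglia, 6 of 23 considered cell cycle genes were called higher and 0 lower. MKI67, a marker of dividing cells, had 0 UMIs in intact lumbar cord and 114 (5.45 CPM) at 14 dpi, below 0.2 of its level in T cells, and BUB1 went from 3 to 141 UMIs. A dividing cluster led by TOP2A, DIAPH3 and MKI67 held 30 microglia at 14 dpi and 0 in intact lumbar cord. Of 19 hypoxia and glycolysis genes 2 were higher, the glucose transporter gene SLC2A3 (32.95, 39.3 and 29.4 CPM in intact cord and 342 CPM at 14 dpi) and LDHA (17.7 to 37.4 CPM). Complement genes held 2 calls higher, CFB (9.18 to 29.9 CPM) and CD59 (10.5 to 30.1 CPM), and 1 lower, C1QB (111 to 54.4 CPM), out of 15. With 5.14% higher and 4.18% lower over all considered genes, the hypoxia and complement counts were near the background. Of 6 considered markers of blood myeloid cells 0 were higher and 1, CD14, was lower (54.7 to 7.94 CPM). Of 32 splicing genes 0 were higher and 1, SON, was lower (629.6 to 308 CPM), with a median of -0.47.

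The interferon response list held 40 genes, of which 33 were considered in microglia. There, 14 were called higher and 1 lower, with a median of 0.95, and 13 and 1 among 30 at own level. Over all considered genes in microglia 5.14% were higher and 4.18% lower. IFI6, a mitochondrial protein gene induced by type I interferon, was at 9.14, 7.88 and 7.15 CPM in intact cord and 57.1 CPM at 14 dpi. OASL went from 1.89 to 26.1 CPM, and USP18, which damps interferon receptor signalling, from 3.24 to 24.4 CPM. The 1 lower gene was TRIM22 (737 to 358 CPM), and PARP14 stood at 159 to 167 CPM. The same list was called higher in oligodendrocytes and astrocytes, and the level of microglial RNA in these classes is given next.

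Genes specific to microglia had a higher level in the other classes at 14 dpi than in intact lumbar cord. The source of these UMIs was not tested. Over 381 genes specific to microglia, the median level in other classes, as a percent of the microglial level, was 1.04 in oligodendrocytes, 1.70 in neurons, 2.66 in astrocytes and 1.30 in OPCs at 14 dpi, against 0.322, 0.881, 0.601 and 0.441 in intact lumbar cord. The summed level of 6 microglia markers, of which 0 were at 0, was 170 CPM in astrocytes at 14 dpi against 17.6, 70.4 and 13.5 CPM in intact cord. In neurons it was 124 CPM against 70.2, 93.9 and 64.0 CPM. Both values at 14 dpi were above the intact range. In oligodendrocytes it was 47.7 CPM against 35.6, 50.4 and 12.01 CPM, and in OPCs 69.2 CPM against 85.2, 123 and 38.8 CPM, so that in these 2 classes the value at 14 dpi lay inside the intact range. The interferon, immediate early, MHC, glucocorticoid, complement, cholesterol and reactive astroglia lists were therefore counted again in nuclei that carried 0 UMIs of the microglia markers. These made up 76.2% of oligodendrocytes, 34.0% of neurons, 75.6% of astrocytes and 71.1% of OPCs at 14 dpi, and 94.2%, 50.1%, 93.0% and 81.3% in intact lumbar cord. A nucleus with 0 of these UMIs can still hold microglial RNA, so the recount cannot tell which class made the RNA. Over all considered genes, such nuclei held 358 of 11806 genes higher in oligodendrocytes, 128 of 14430 in neurons, 239 of 7400 in astrocytes and 116 of 6576 in OPCs.

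In oligodendrocytes, 376 of 12615 considered genes (2.98%) were higher and 291 (2.31%) lower at 14 dpi. Among 10283 at own level these were 192 (1.87%) and 198 (1.93%). At 14 dpi 1116 and 657 of the 1904 nuclei lay in clusters led by CNDP1, QDPR and OPALIN and by FGFR2, CDK18 and PICK1. In intact lumbar cord 1571, 1087 and 691 of 3462 lay in 3 others, led by OPALIN and OLAH, by KCNMB4 and ANLN, and by RAI14 and CNMD. Of 18 considered core myelin genes, 0 were higher and 0 lower, with a median of 0.09 against -0.01 over all considered genes, a count near the background for a list of this size. HAPLN2, a link protein at nodes of Ranvier, was at 1065 to 673 CPM and CNP, an enzyme of myelin, at 70.4 to 102 CPM, and NFASC, the adhesion protein neurofascin, at 420.2 to 424 CPM.

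Interferon response genes were higher in oligodendrocytes. Of 25 considered, 19 were called higher and 0 lower, with a median of 1.38, against 2.98% and 2.31% over all considered genes. Among 13 at own level 8 were higher, and in nuclei without microglia marker UMIs 19 of 25, with a median of 1.48. IFI6 was at 1.99, 1.49 and 1.07 CPM in intact cord and 28.5 CPM at 14 dpi, with a log2 ratio of 4.74 (4.18 to 5.36), and MX1, a GTPase that blocks viruses, at 2.24, 2.69 and 1.38 CPM in intact cord and 25.6 CPM at 14 dpi. Both were above all 3 intact libraries, as a call requires. In the nuclei without microglia marker UMIs their levels at 14 dpi were 29.8 and 26.2 CPM. IFIT1, which binds foreign RNA, went from 6.24 to 19.6 CPM. IFIT5 stood at 3.32 to 3.22 CPM.

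Interferon response genes were also higher in astrocytes. Of 19 considered, 15 were called higher and 0 lower, with a median of 1.78, against 3.61% higher over all considered genes, and 12 of 15 at own level. In nuclei without microglia marker UMIs 13 of 16 were higher and 0 lower, with a median of 1.71. MX1 was at 7.88, 5.89 and 3.95 CPM in intact cord and 79.2 CPM at 14 dpi, IFIT1 at 4.35, 3.75 and 2.55 CPM in intact cord and 46.95 CPM at 14 dpi, and IFI6 at 4.35, 3.11 and 5.35 CPM in intact cord and 82.6 CPM at 14 dpi. The log2 ratio of MX1 was 4.33 (3.76 to 4.94) from 31 and 140 UMIs. DDX60, an RNA helicase gene, was at 3.76, 2.84 and 4.33 CPM in intact cord and 65.6 CPM at 14 dpi, and ADAR, which edits double-stranded RNA, at 50.3 to 59.96 CPM. In OPCs, where 1.96% of all considered genes were higher, 5 of 12 interferon genes were higher and 0 lower, among them IFI6 (3.196 to 26.8 CPM) and IFI44, which had 0 UMIs in intact lumbar cord and 49 (29.2 CPM) at 14 dpi. In OPC nuclei without microglia marker UMIs 2 of 7 were higher. In neurons, where the share over all genes was 1.16%, 6 of 34 were higher and 0 lower, but 0 of 13 at own level, and 2 of 21 in nuclei without microglia marker UMIs.

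Genes induced by interferon often carry an interferon-stimulated response element near their start. The 300 bases before the gene start were read from the Mmul_10 genome at the starts of its RefSeq annotation and searched on both strands for the core of this element, GAAANNGAA, with overlapping matches counted. It was present in 8.42% of 20787 protein-coding genes. Of the 14 genes of the list called higher at own level in oligodendrocytes or astrocytes, 4 held it (28.6%), namely DDX60, IFI44, IFI6 and SAMD9L. Of the 13 called so in microglia, 5 held it (38.5%). The list was chosen as interferon response genes, so its share beside all genes is no test of these calls. The 2 windows below belong to genes called higher in at least 4 classes, and capitals mark each match on either strand. A match is a description of the letters, not a bound site.
IFI6 (chr1:197051286-197051585, plus strand): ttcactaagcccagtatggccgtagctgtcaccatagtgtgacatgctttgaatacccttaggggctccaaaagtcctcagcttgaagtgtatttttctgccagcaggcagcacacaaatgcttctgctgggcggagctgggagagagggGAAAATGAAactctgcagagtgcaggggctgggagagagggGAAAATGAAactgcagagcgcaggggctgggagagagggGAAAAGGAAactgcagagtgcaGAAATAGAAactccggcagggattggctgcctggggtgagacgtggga
IFI44 (chr1:145763683-145763982, minus strand): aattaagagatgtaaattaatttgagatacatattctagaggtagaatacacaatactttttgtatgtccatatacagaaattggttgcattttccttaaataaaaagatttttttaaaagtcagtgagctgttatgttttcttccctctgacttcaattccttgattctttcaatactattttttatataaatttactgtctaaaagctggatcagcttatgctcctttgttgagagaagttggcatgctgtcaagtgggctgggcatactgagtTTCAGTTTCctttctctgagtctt

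The window of IFI6 held 4 matches and that of IFI44 held 1, the nearest 48 and 24 bases before the gene start. The core and the sterol element searched further on were chosen after the data were seen. The full consensus of the glucocorticoid response element was found in 0.250% of all windows and in 2 of the 8 glucocorticoid genes called lower at own level in microglia (25%), MT2A and TXNIP. The E-box CACGTG was in 4 of these 8 (50%) and in 7.32% of all windows. Of 11 immediate early genes called higher at own level in microglia, 0 held an AP-1 site and 3 a cAMP response element (6.23% and 1.56% of all windows). The search planned first covered the 10 microglia genes named by rule. There 1 held the interferon core, 1 the E-box, and the other motifs had 0 matches.

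In oligodendrocytes 7 of 19 considered glucocorticoid response genes were lower and 0 higher, with a median of -0.54, against 2.31% lower and 2.98% higher over all considered genes, and 5 of 12 at own level. In nuclei without microglia marker UMIs 6 of 19 were lower and 0 higher. ZBTB16, a zinc finger transcription factor gene, was at 447, 431 and 493 CPM in intact cord and 96.99 CPM at 14 dpi, with a log2 ratio of -2.35 (-2.42 to -2.27), and PDK4, a kinase that curbs glucose oxidation, at 13.4, 10.99 and 9.21 CPM in intact cord and 0.837 CPM at 14 dpi. KLF9 went from 92.4 to 29.5 CPM and FKBP5 from 189.5 to 34.1 CPM. The level of FKBP5 in intact oligodendrocytes lay below 0.2 of that in microglia. In nuclei without microglia marker UMIs, FKBP5 in oligodendrocytes was 189 and 30.0 CPM.

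In astrocytes 4 of 20 glucocorticoid genes were lower and 2 higher, with a median of -0.17, and 3 and 2 of 17 at own level. Over all considered genes in astrocytes 1.49% were lower and 3.61% higher. Astrocytes free of microglia marker UMIs had 2 of 15 lower and 0 higher. FKBP5 went from 807 to 235 CPM, KLF15 from 23.4 to 6.79 CPM and PDK4 from 19.98 to 6.22 CPM, while ERRFI1, an inhibitor of the EGF receptor, went from 46.7 to 106 CPM and ANGPTL4 from 7.76 to 22.1 CPM. In OPCs 2 of 11 were lower and 0 higher, FKBP5 (341 to 98.4 CPM) and ZBTB16 (445 to 168 CPM), against 1.7% lower over all considered genes. ZBTB16 was at 408 and 441 CPM in intact cervical and thoracic OPCs, close to the intact lumbar value. Neurons stood apart in level. FKBP5 was at 34.7, 36.8 and 23.7 CPM in intact cord and 24.8 CPM at 14 dpi in neurons, against 4092 CPM in intact lumbar microglia. In neurons 1 of 22 considered genes was called lower, against 0.794% over all considered genes. It was the metallothionein gene MT1X, which was not at own level. In neurons without microglia marker UMIs 2 of 18 were lower and 0 higher.

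**Figure D3:**
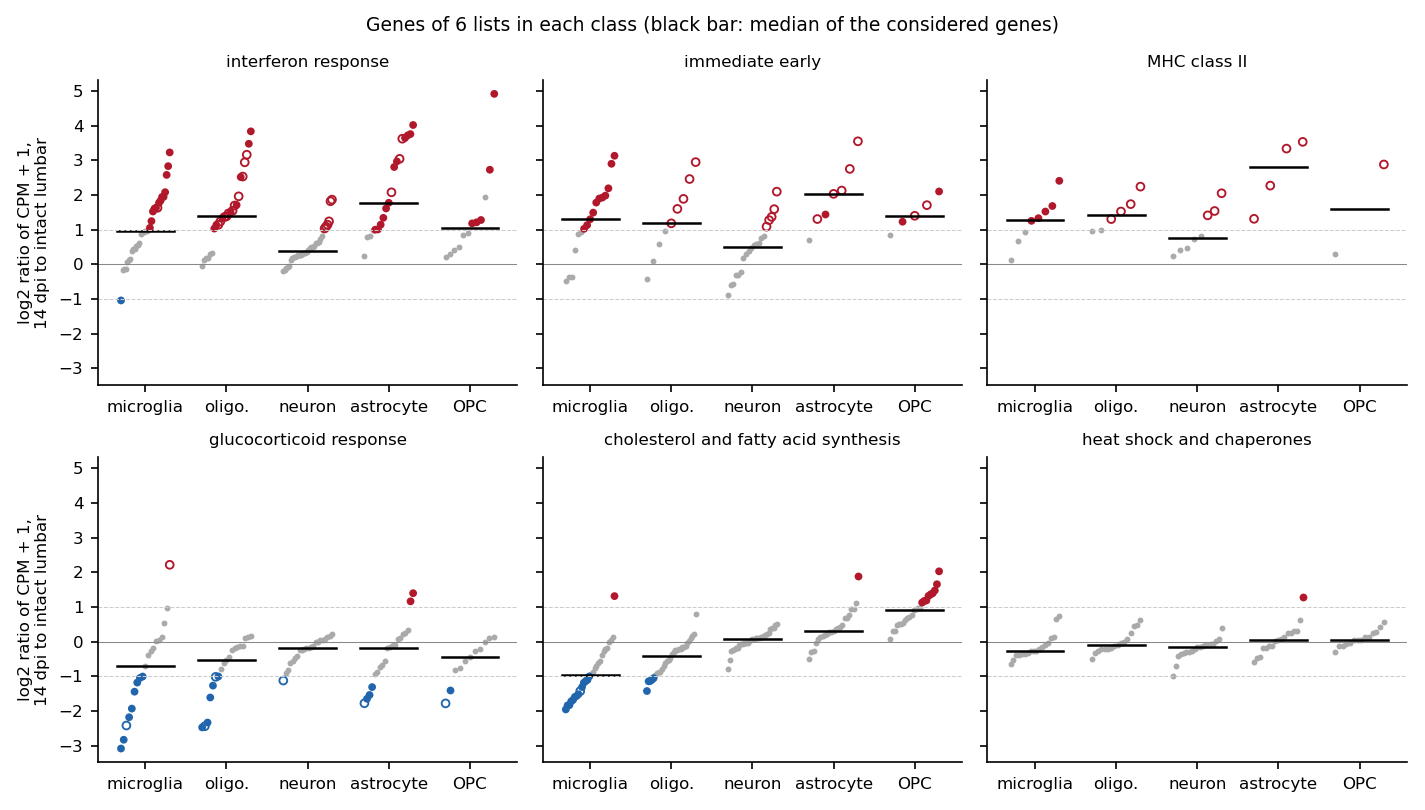
Log2 ratio of CPM + 1, 14 dpi to intact lumbar, for every considered gene of 6 lists in the 5 classes, where filled colours mark calls at own level, open colours mark calls below 0.2 of another class, grey marks no call and black bars mark medians. The median of the interferon list lies above 0 in all 5 classes, lowest in neurons. That of the cholesterol list lies below 0 in microglia and above 0 in OPCs, and the MHC class II calls outside microglia are all open.

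Among the genes with the widest gap outside the intact range in oligodendrocytes, GPR176 (chromosome 7, 16212159 to 16332273, minus strand), an orphan G protein-coupled receptor gene, was at 215, 239 and 211 CPM in intact cord and 1.29 CPM at 14 dpi, with a log2 ratio of -7.36 (-8.07 to -6.73). It was at 93.9 CPM at 7 dpi and at 3.798 and 3.27 CPM at 30 dpi and 6 months. SMOC2, a matricellular protein gene, went from 129.7 to 7.01 CPM and was at 167 CPM at 30 dpi. HEYL, a transcriptional repressor downstream of Notch, went from 263 UMIs (10.4 CPM) to 3 UMIs (0.193 CPM), and ADAMTSL5, an ADAMTS-like matrix protein gene, from 410 to 4 UMIs. NOL4 went from 122 to 13.97 CPM.

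CMTM8 (chromosome 2, 15343310 to 15473785, minus strand), which encodes a membrane protein of the MARVEL family, was at 0.615, 0.689 and 0.948 CPM in intact cord and 56.8 CPM at 14 dpi, with a log2 ratio of 5.91 (5.32 to 6.55). Injured libraries held 88.6 CPM at 7 dpi, 64.8 at 30 dpi and 5.41 at 6 months. COL23A1, a transmembrane collagen gene, went from 3.24 to 61.1 CPM, SULT1C3, a sulfotransferase gene, from 7.19 to 100 CPM, and CLVS2, which encodes a clathrin vesicle protein, from 3.16 to 37.2 CPM. All 4 lay above the 3 intact libraries, as a call requires. In nuclei without microglia marker UMIs they stood at 63.1, 62.1, 94.6 and 37.9 CPM at 14 dpi.

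Calls of 4 other lists in oligodendrocytes were of genes below own level. All calls of the immediate early list (5 of 9), MHC class II (4 of 6), MHC class I (3 of 9) and complement (5 of 10) were of genes far higher in another class, and 0 of them were at own level. CD74 was at 2.05 to 13.4 CPM in oligodendrocytes, against 1341 CPM in microglia at 14 dpi. Among nuclei free of microglia marker UMIs, 4 of 8 considered immediate early genes, 3 of 9 MHC class I and 4 of 8 complement genes were still higher. So were the MHC class II genes, 4 of 4 considered, with CD74 at 2.17 and 11.7 CPM. B2M went from 6.598 to 47.5 CPM, and FOS from 1.42 to 17.7 CPM, and in those nuclei FOS was at 1.49 and 17.1 CPM. Nuclei with 0 marker UMIs can still hold microglial RNA, so these counts do not tell which class made it. The part of microglial RNA in these values was not tested further. Cholesterol genes were lower in oligodendrocytes for 5 of 30 considered, with 0 higher and a median of -0.43. Over all considered genes in oligodendrocytes 2.98% were higher and 2.31% lower. HMGCS1 was at 249, 245 and 173 CPM in intact cord and 63.6 CPM at 14 dpi, and SC5D and FDFT1 went from 36.9 to 16.1 CPM and 104 to 46.7 CPM.

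In astrocytes, 312 of 8647 considered genes (3.61%) were higher and 129 (1.49%) lower, and among 7781 at own level 228 (2.93%) and 107 (1.38%). The class held 254 nuclei at 14 dpi and 978 in intact lumbar cord, with 1767850 and 7856096 UMIs. Of these, 92 and 512 lay in a cluster led by ITGB4 and SLC14A1, and 162 and 466 in one led by ITPRID1 and SLC1A2, so the mix of the clusters differed. Reactive astroglia genes were called higher for 7 of 22 considered and lower for 0, with a median of 0.67, and 4 of 18 at own level. In nuclei without microglia marker UMIs 6 of 14 were higher.

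GFAP, the intermediate filament that marks reactive astrocytes, was at 1221, 1316 and 939 CPM in intact cord and 2755 CPM at 14 dpi, with a log2 ratio of 1.55 (1.5 to 1.60). SERPINA3, an acute-phase protease inhibitor, was at 4.82, 7.82 and 5.35 CPM in intact cord and 37.3 CPM at 14 dpi, and CHI3L1, a chitinase-like secreted protein, at 8.58, 6.43 and 11.8 CPM in intact cord and 58.8 CPM at 14 dpi. CP, the copper oxidase ceruloplasmin, went from 7.38 to 20.4 CPM. The other 3 calls, C3, SPP1 and VIM, were not at own level, and C3 stood at 29.98 CPM in astrocytes against 853 CPM in microglia. MT3, a metallothionein gene, was at 22.8 to 24.3 CPM.

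Some complement genes were called higher in astrocytes. C1S, a protease of the classical pathway, went from 9.93 to 33.9 CPM, the C1 inhibitor gene SERPING1 from 15.2 to 46.4 CPM, and CFB from 12.2 to 25.4 CPM, so that 4 of 9 considered were called higher with C3 and 3 of 7 at own level. Without the nuclei that held microglia marker UMIs, 2 of 7 were higher and 0 lower, with a median of 0.59. Of 22 considered transport and support genes of astrocytes, 0 were higher and 1 lower, against 3.61% and 1.49% over all considered genes, the proteoglycan gene GPC6 (554, 334 and 666 CPM in intact cord and 253 CPM at 14 dpi), with a median of -0.10, so the list was near the background. The cystine transporter gene SLC7A11 was at 266 to 265 CPM.

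Matrix and guidance genes in astrocytes held a few calls. NCAN, the chondroitin sulfate proteoglycan neurocan, was at 16.9, 30.1 and 16.2 CPM in intact cord and 61.7 CPM at 14 dpi, and LAMA2, a laminin chain, went from 10.3 to 31.7 CPM. These were the 2 calls among 18 matrix genes, both higher. Of 28 axon guidance genes 4 were higher and 1 lower. Over all considered genes in astrocytes 3.61% were higher and 1.49% lower. EPHA6, an ephrin receptor, was at 77.2, 247 and 77.01 CPM in intact cord and 342 CPM at 14 dpi, NRP2, a receptor for class 3 semaphorins, at 65.5, 43.98 and 65.9 CPM in intact cord and 220 CPM at 14 dpi, and SEMA3C, a secreted semaphorin, went from 104 to 38.5 CPM. Thoracic cord held EPHA6 at 247 CPM, so the intact segments themselves were spread wide.

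The 10 genes with the widest gap in astrocytes rested on few UMIs at 14 dpi. AQP6, an aquaporin gene, was at 3.76, 1.02 and 6.87 CPM in intact cord and 113 CPM at 14 dpi (200 UMIs), GJC1, a connexin gene, at 1.53, 1.77 and 0.509 CPM in intact cord and 37.3 CPM at 14 dpi (66 UMIs), and ST6GALNAC5, a sialyltransferase gene, at 1.18, 2.196 and 2.42 CPM in intact cord and 62.2 CPM at 14 dpi (110 UMIs). All 3 were above every intact library, as a call requires. SLC26A5, which encodes prestin, went from 305 UMIs to 1, with a log2 ratio of -6.10 (-11.41 to -3.61), and ITGA1, an integrin chain, from 275 to 1, with a log2 ratio of -5.95 (-11.26 to -3.46). XG went from 43.4 to 6.22 CPM, RBM20, a splicing regulator, from 46.8 to 6.79 CPM, and GABRA2, a GABA receptor subunit gene, from 40.99 to 6.22 CPM. Immediate early genes were called higher for 6 of 7 considered, of which 1, JUND (11.1 to 32.2 CPM), was at own level. The nuclei free of microglia marker UMIs had 4 of 5 higher, with a median of 1.64, and FOS was at 7.30 and 93.0 CPM. MHC class II genes were higher for 4 of 4, with 0 at own level. Over all considered genes in astrocytes 3.61% were higher.

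In OPCs, 152 of 7744 considered genes (1.96%) were higher and 132 (1.7%) lower, and among 6984 at own level 112 (1.6%) and 106 (1.52%). There were 235 nuclei at 14 dpi and 728 in intact lumbar cord, and all of them lay in 1 cluster led by VCAN, PTPRZ1 and MEGF11. Of 24 considered cholesterol and fatty acid synthesis genes, 9 were called higher and 0 lower, all at own level, with a median of 0.93 against 0.01 over all considered genes. In nuclei without microglia marker UMIs 10 of 23 were higher and 0 lower, with a median of 0.957.

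HMGCS1 (chromosome 6, 43297245 to 43321487, minus strand), an early enzyme of the pathway, was at 67.03, 92.8 and 35.4 CPM in intact cord and 147 CPM at 14 dpi in OPCs, with a log2 ratio of 2.06 (1.77 to 2.35). MSMO1 was at 51.2, 53.96 and 35.6 CPM in intact cord and 101 CPM at 14 dpi, and INSIG1 at 21.2, 23.3 and 12.6 CPM in intact cord and 41.7 CPM at 14 dpi. The intact lumbar value of these 3 was the lowest of the intact libraries, so the step from cervical or thoracic cord was smaller. For HMGCS1 the thoracic value was 92.8 CPM. When each nucleus was named alone, from its own markers and not its cluster, all 3 kept their direction but were no longer past 2-fold, at 0.77 for HMGCS1, 0.59 for MSMO1 and 0.39 for INSIG1 on the log2(CPM + 1) scale. Of the 152 genes called higher in OPCs, 20 were called so under that naming, out of 210. Under it 13659 genes were considered in OPCs against 7744 by cluster, so a different set of nuclei was summed. SQLE, the first oxygen-using enzyme of the pathway, went from 22.2 to 58.4 CPM, and TM7SF2 was at 95.5 to 100.2 CPM.

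Several of these genes were called in the opposite direction in microglia. Of the 8 genes at own level in both classes that were lower in microglia and higher in OPCs, 7 belonged to this list, among them FDFT1, HMGCS1, INSIG1, MSMO1 and SQLE. Lower in oligodendrocytes and higher in OPCs were 3 genes at own level, all of this list, of which FDFT1 and HMGCS1 were also among the 8. The 2 classes share their libraries, so these counts describe them and were not tested. In the plot of these genes, 22 members considered in both classes are drawn.

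**Figure D4:**
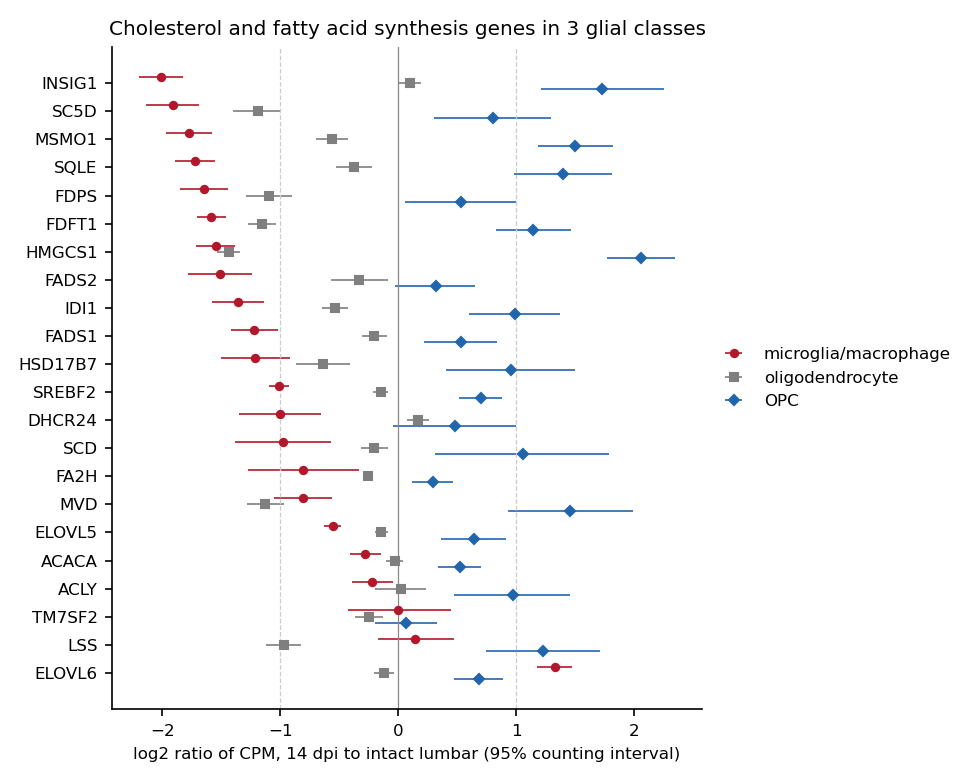
Log2 ratio of CPM, 14 dpi to intact lumbar, with 95% counting intervals, for 22 cholesterol and fatty acid synthesis genes considered in both microglia/macrophages and OPCs, with oligodendrocytes in grey. Most microglial points lie left of 0 and most OPC points right of it, as for INSIG1 at -2.01 in microglia and 1.73 in OPCs.

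The window of 300 bases before HMGCS1 is shown because this gene carried the largest ratio of the list in OPCs. Capitals mark a match to the sterol response element TCACNCCAC, 180 bases before the gene start. This motif was present in 1.74% of all windows and in 1 of 9 genes of the list called higher in OPCs. Of the 13 called lower at own level in microglia, 12 had a window and 1 held the motif.
HMGCS1 (chr6:43321488-43321787, minus strand): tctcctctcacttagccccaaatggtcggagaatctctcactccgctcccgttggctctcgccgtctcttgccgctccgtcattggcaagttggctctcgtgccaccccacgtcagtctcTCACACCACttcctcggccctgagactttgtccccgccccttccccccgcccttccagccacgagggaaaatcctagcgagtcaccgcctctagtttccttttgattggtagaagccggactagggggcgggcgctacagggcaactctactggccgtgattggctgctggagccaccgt

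Of the other lists in OPCs, synapse adhesion genes held 5 calls lower and 0 higher out of 26, and 2 of 22 at own level. Over all considered genes in OPCs 1.7% were lower and 1.96% higher. The summed level of 6 neuron markers in OPCs, of which 0 were at 0, was 306 CPM at 14 dpi against 577, 693 and 713 CPM in intact cord, and its part in these calls was not tested. CNTN3, a contactin gene, was at 55.8, 56.3 and 94.8 CPM in intact cord and 16.1 CPM at 14 dpi, and CDH18 went from 217 to 99.6 CPM. CNTNAP2, CDH12 and NRXN3 were far higher in neurons, and the direction of CNTN3, CNTNAP2 and CDH12 turned when each nucleus was named alone (0.23, 0.40 and 0.26 on the log2(CPM + 1) scale), as did that of NRP2. Of 16 considered glutamate receptor genes 0 were called, and GRIA4, an AMPA receptor subunit gene, went from 4428 to 7396 CPM.

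Guidance genes of OPCs were called higher for 2 of 28 and lower for 2, and for 1 and 2 of 25 at own level, near the shares of 1.96% and 1.7% over all considered genes for a list of this size. SEMA3A, a repellent for axons, was at 57.04, 70.8 and 62.2 CPM in intact cord and 13.1 CPM at 14 dpi, and SLIT1, another repellent, went from 24.1 to 51.9 CPM. SEMA5B, a transmembrane semaphorin, had the widest gap above the intact range, at 6.18, 6.94 and 2.77 CPM in intact cord and 54.9 CPM at 14 dpi, with a log2 ratio of 4.31 (3.46 to 5.27). It was also high at 30 dpi (47.5 CPM) and not at 7 dpi (9.24 CPM). DACH2, a transcription factor gene, went from 2.34 to 31.6 CPM, SLC9B1, an ion exchanger gene, from 15.98 to 82.3 CPM, and FZD6, a Wnt receptor, from 22.8 to 64.4 CPM.

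NEFH, the heavy neurofilament gene, went from 10.9 to 36.4 CPM in OPCs, and an unnamed cluster of 103 nuclei at 14 dpi held 6226 CPM of it, against 2 nuclei of that cluster in intact lumbar cord. Another unnamed cluster with NEFH among its leading genes held 160 nuclei at 14 dpi and 289 in intact lumbar cord. The part of either cluster's RNA in the OPC value was not tested. Lower genes were ACSBG2, an acyl-CoA synthetase gene (142 to 3 UMIs), ACVR1C, a receptor of the TGF-beta family (41.5 to 8.35 CPM), and TFPI, an inhibitor of blood clotting (121, 128 and 132 CPM in intact cord and 33.98 CPM at 14 dpi). Of 16 genes of new oligodendrocytes 1, BMP4, was higher (31 UMIs, 6.18 to 18.5 CPM), with a median of 0.38. Over all considered genes in OPCs 1.96% were higher, so this count is near the background for a list of this size. Immediate early genes were higher for 4 of 5, of which EGR1 (6.18 to 29.8 CPM) and JUND (10.9 to 26.8 CPM) were at own level.

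In neurons, 205 of 17640 considered genes (1.16%) were higher and 140 (0.794%) lower, and among 14798 at own level 91 (0.615%) and 114 (0.77%). Neurons carried the most UMIs per nucleus, a median of 28826 at 14 dpi and 26661 in intact lumbar cord, so even low genes were considered. Nuclei with at least 3 UMIs of GAD1, GAD2, SLC6A5 and SLC32A1, the genes of inhibitory transmission, and 0 of SLC17A6 made up 40.8% (38.5 to 43.1) at 14 dpi and 45.4% (43.5 to 47.2) in intact lumbar cord, and those with the reverse 19.9% (18 to 21.8) and 18.3% (16.9 to 19.8). With 1.16% higher and 0.794% lower over all considered genes, lists of 12 to 41 genes would hold few calls or none, so the counts of the receptor, channel, transmitter, peptide, guidance and adhesion lists below, at 0 or 1 call each, say nothing particular of them.

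Of 24 considered glutamate receptor genes 0 were higher and 0 lower, with a median of -0.02. GRM4, a presynaptic metabotropic receptor, was farthest from 0 at 35.8, 29.9 and 34.6 CPM in intact cord and 27.8 CPM at 14 dpi, with a log2 ratio of -0.32 (-0.40 to -0.23), and GRIA2, the AMPA subunit that limits calcium entry, was at 708 to 699 CPM. Of 21 GABA and glycine receptor and chloride transporter genes 0 were called. SLC12A5, the chloride exporter KCC2 that keeps inhibition hyperpolarizing, was at 92.7, 104 and 90.5 CPM in intact cord and 66.6 CPM at 14 dpi, with a log2 ratio of -0.44 (-0.50 to -0.39), below the 3 intact values but short of 2-fold. GABRG3 was at 871 to 868 CPM. Of 23 sodium and calcium channel genes 0 were called, and CACNA1G, a T-type calcium channel, was farthest from 0 at 80.5 to 52.6 CPM.

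Of 35 potassium and HCN channel genes 1 was lower and 0 higher. KCNA2, a channel of axons beside the node, was at 5.25, 4.53 and 4.999 CPM in intact cord and 1.72 CPM at 14 dpi, with a log2 ratio of -1.54 (-1.85 to -1.23), and KCNA1, its partner, went from 11.6 to 6.29 CPM, short of 2-fold. In neurons without microglia marker UMIs KCNA1 was called lower, from 11.8 to 5.08 CPM, with a log2 ratio of -1.22 (-1.57 to -0.88). Of 19 monoamine receptor genes, which receive descending serotonin, noradrenaline and dopamine input, 0 were called. HTR2A, a serotonin receptor, was at 19.3, 20.4 and 17.9 CPM in intact cord and 13.9 CPM at 14 dpi, and DRD2, a dopamine receptor, at 15.1 to 10.7 CPM.

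Among 12 transmitter identity genes 1 was lower, NOS1, the neuronal nitric oxide synthase (18, 50.4 and 26.4 CPM in intact cord and 11.8 CPM at 14 dpi), with a median of -0.37. The intact segments spread from 18 to 50.4 CPM, so NOS1 also differed between intact libraries. GAD2, an enzyme that makes GABA, was at 93.5, 118 and 114 CPM in intact cord and 65.2 CPM at 14 dpi, with a log2 ratio of -0.81 (-0.86 to -0.76), below the intact range but short of 2-fold. SLC17A6, the glutamate transporter of excitatory spinal neurons, was at 50.7 to 49.9 CPM. Among 25 genes of the neuropeptide list 1 was higher, CARTPT (0.951, 0.617 and 0.703 CPM in intact cord and 3.28 CPM at 14 dpi), the precursor of the CART peptides. NMS, a neuropeptide gene outside the list, was also called higher and is given further on. The peptide gene TAC3 went from 6.82 to 10.3 CPM, and NMU from 21.2 to 32.01 CPM.

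Genes linked to axon injury and regeneration held 1 call among 25, JUN (1.79 to 5.76 CPM). It was not at own level, and 0 of 19 at own level were called. Over all considered genes in neurons 1.16% were higher and 0.794% lower. ATF3, the best known marker of axotomized neurons, was at 0.297, 1.85 and 1.002 CPM in intact cord and 2.0 CPM at 14 dpi, with thoracic neurons close to the value at 14 dpi. In neurons without microglia marker UMIs the direction was reversed, with 1.02 CPM (42 UMIs) in intact lumbar cord and 0.239 CPM (4 UMIs) at 14 dpi. Of 41 axon guidance and 31 synapse adhesion genes 0 were called in either direction. The log2 ratio (CPM + 1) of their median gene was -0.08 and -0.04, against -0.03 over all considered genes in neurons. Immediate early genes were higher for 5 of 20, with 0 of 6 at own level, and in nuclei without microglia marker UMIs 1 of 14 was higher and 2 lower. SOD2 was the 1 NF-kB gene called, at 57.99, 46.3 and 55.3 CPM in intact cord and 20.8 CPM at 14 dpi, with a log2 ratio of -1.41 (-1.5 to -1.32).

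**Figure D5:**
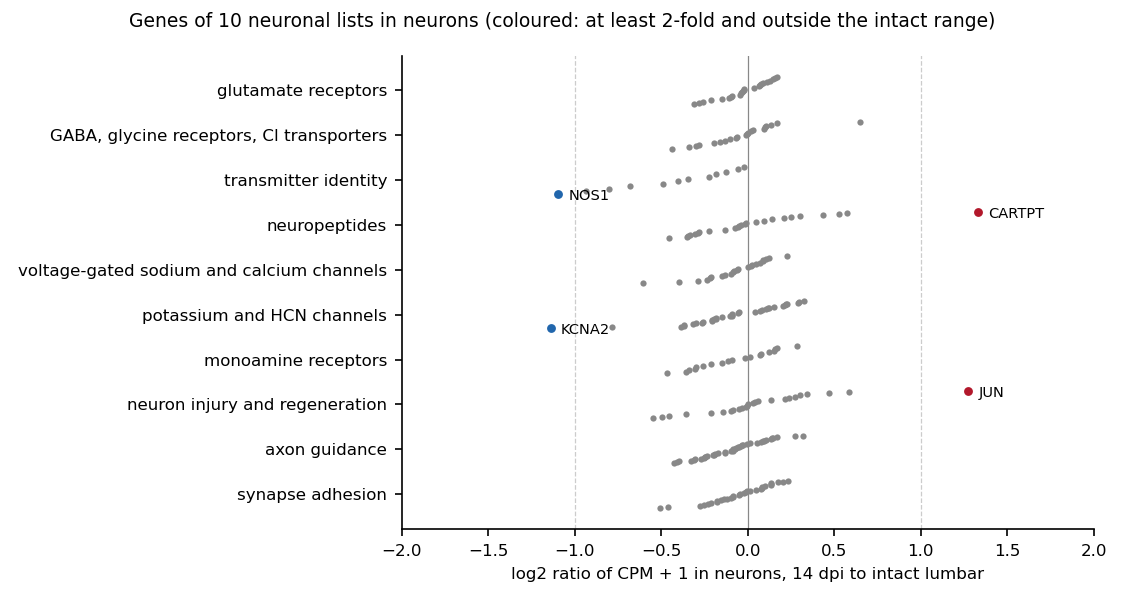
Log2 ratio of CPM + 1 in neurons, 14 dpi to intact lumbar, for every considered gene of 10 neuronal lists, with dashed lines at a 2-fold difference and colours for genes called higher or lower. Nearly all points lie between the dashed lines, and the 4 coloured points are NOS1, KCNA2, CARTPT and JUN.

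Among the neuronal genes with the widest gap, ZNF43, a zinc finger gene of a family with near-identical copies that can share reads, was at 61.04, 48.8 and 50.7 CPM in intact cord and 439.8 CPM at 14 dpi, with a log2 ratio of 3.12 (3.07 to 3.16), and at 327 CPM at 7 dpi, 90.2 at 30 dpi and 46.6 at 6 months. PON3, a paraoxonase gene, was at 0.9902, 1.303 and 0.821 CPM in intact cord and 15.01 CPM at 14 dpi, and NMS, the neuropeptide neuromedin S, at 12.1, 12.4 and 12.9 CPM in intact cord and 45.9 CPM at 14 dpi. All 3 lay above the intact range, as a call requires, and NMS stood at 89.9 CPM in oligodendrocytes of the 14 dpi library. SLC45A2 (0.224 to 4.46 CPM) and GAL3ST2 (1.01 to 6.96 CPM) were higher from low levels. Lower genes were SLC28A2, a nucleoside transporter gene (13.6, 8.400 and 10.8 CPM in intact cord and 0.276 CPM at 14 dpi, and 1.92 to 0.12 CPM in neurons without microglia marker UMIs), DGCR6 (8.47 to 0.878 CPM), C18H18orf63 (6.55 to 0.439 CPM), SLC26A5 (19.9 to 5.301 CPM) and TTN, the titin gene (8.55 to 1.97 CPM).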

How the data were processed

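The deposited files are gene by barcode matrices of UMI counts, 1 per library, made by the authors with Cell Ranger 6.0.0 per the submitters' processing notes, on the Mmul_10 genome by the study's methods. They hold 35432 gene identifiers and no barcode under 500 UMIs. Nuclei of all 7 libraries with at least 1000 UMIs and over 500 genes were kept. The highest 5% of Scrublet scores of each library were removed as likely doublets. Counts were scaled to 10000 a nucleus, and 2000 variable genes, 30 principal components and 20 neighbours gave Leiden clusters at resolution 1 (scanpy 1.11.5, leidenalg 0.10.2, seed 1). A cluster took the class with the highest marker score, the mean level of its markers relative to the cluster highest in each. It stayed unnamed with under 3 markers detected, with low UMIs, or where a second class came close or led. The rule that a second class counts only with at least 3 markers detected in 10% of nuclei was added after the clusters were seen. The authors' own doublet removal and cell labels were not used here.

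Class levels are UMIs added over the nuclei of a class in each library and scaled by their total (CPM). Calls used a pseudocount of 1 CPM, a 2-fold difference, the range of the 3 intact libraries and at least 20 expected UMIs. Genes named singly were the 5 with the widest gap outside the intact range in each direction and class, with at least 50 UMIs, at own level, and no markers, ribosomal, mitochondrial or hemoglobin genes. From each list, the 3 genes farthest from 0 and the nearest to 0 were eligible as examples, and genes named beyond these were chosen after their values were seen. The comparison, members and lists were chosen with earlier results of these data known. Intervals are exact (Clopper-Pearson for shares, conditional binomial for ratios, scipy 1.17.1), at 95%, and cover counting error only. Of 28966 symbols, 16365 matched the RefSeq annotation that gave coordinates and promoters. A few genes and a promoter window are not reported here. The calling step was tested on simulated data, Poisson counts with all intact libraries drawn from a shared profile. Such counts hold no spread between libraries and no RNA from other classes, so the test says nothing of either. With 1 library a group there is no test between groups. Alternatives changed doublet removal, clustering, naming, scaling, summing, reference, expected UMIs and pseudocount.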

Additional observations from a re-analysis of the deposited data

Results flagged for a closer look

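Some genes were called in opposite directions in 2 classes of the same libraries, at own level in both. The difference between classes was not tested, since each side is 1 library, and values are log2 ratios of CPM from 14 dpi to intact lumbar. Some members of the gene lists are given here. Between microglia and OPCs the ratio was -1.59 and 1.15 for FDFT1, -1.55 and 2.06 for HMGCS1, -2.01 and 1.73 for INSIG1, -1.78 and 1.5 for MSMO1, and -1.72 and 1.40 for SQLE. In OPCs HMGCS1, INSIG1 and MSMO1 were lowest in lumbar cord among the intact libraries, and they were no longer called when each nucleus was named alone (0.77, 0.39 and 0.59 on the log2(CPM + 1) scale). In oligodendrocytes FDFT1 was at -1.15, HMGCS1 at -1.44 and MVD at -1.13, while MVD was at 1.46 in OPCs.

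Outside that list, DIAPH3, a formin gene that led the dividing cluster, was at 3.62 in microglia and -1.11 in astrocytes. ERRFI1 was at -1.17 in microglia and 1.18 in astrocytes.

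A cluster without a name, which enters none of the comparisons, held 103 nuclei at 14 dpi, 1.12% of kept nuclei (0.913 to 1.35). The intact lumbar and cervical libraries held 2 each and the thoracic library 0, and there were 4 at 7 dpi, 36 at 30 dpi and 0 at 6 months. It was led by the neurofilament genes, with NEFL at 5018 CPM, NEFM at 8165 and NEFH at 6226 at 14 dpi, against 37.9, 57.8 and 45.4 CPM in neurons of that library. The neuronal genes SYT1 and RBFOX3 stood at 62.8 and 56.8 CPM, against 1646 and 401 in neurons. SNAP25, also neuronal, was at 684 CPM against 672 in neurons, about the neuronal level. The microglial genes CSF1R and APBB1IP stood at 319.8 and 2352 CPM, against 429 and 2840 CPM in microglia. CHAT, the motor neuron enzyme of acetylcholine synthesis, had 0 UMIs. PRPH stood at 448 CPM against 4.05 in neurons, and SLC5A7, the choline transporter gene, was among the leading genes of the cluster. The median nucleus of this cluster at 14 dpi held 3403 UMIs. Another cluster, left unnamed for low UMIs, also had NEFH, NEFL and NEFM among its leading genes. It held 203 nuclei in intact cervical, 107 in thoracic and 289 in lumbar cord. At 14 dpi it held 160, with 41 at 7 dpi, 165 at 30 dpi and 157 at 6 months. Unnamed nuclei led in part by neurofilament genes were therefore not limited to injured libraries. The level of these genes was not compared between the clusters.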

How the results depend on the processing

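Of 127 alternative values of the counts of called genes and of the share of microglia, 100 stayed close to the value reported and 27 did not. With a pseudocount of 10 CPM the counts higher and lower were 300 and 180 in microglia, 72 and 80 in oligodendrocytes, 18 and 13 in neurons, 174 and 57 in astrocytes, and 60 and 73 in OPCs, all of them genes also called with 1 CPM. With at least 100 expected UMIs they were 354 and 232 in microglia, 169 and 163 in oligodendrocytes, 77 and 39 in astrocytes, and 21 and 43 in OPCs, where fewer genes are considered. With at least 5 they were 716 and 303 in astrocytes and 385 and 376 in OPCs. Naming each nucleus alone gave 263 lower in OPCs, of which 43 were among the 132 reported. It gave 210 higher, of which 20 were among the 152 reported, so most OPC calls were seen only with naming by cluster. Naming each nucleus alone considered 13659 genes in OPCs against 7744 by cluster, so it summed a different set of nuclei. The kinds of nuclei it held were not tested. The mean of the 3 intact libraries as reference gave 221 lower in astrocytes. Nuclei without microglia marker UMIs gave 128 higher in neurons, and genes at own level 192 higher in oligodendrocytes and 91 higher in neurons, alternatives chosen after seeing the data. The cause of the other shifts was not tested.

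Of 1975 alternative ratios of named genes, 1702 stayed close and 269 moved, some of them genes without a call whose sign changed, such as ATF3 in neurons. A further 4 were called genes that changed sign, in OPCs with each nucleus named alone, CNTN3 at 0.23, NRP2 at -0.14, CNTNAP2 at 0.40 and CDH12 at 0.26. Of 1204 alternative values for called genes, 1127 were still called. The difference in microglial share ranged from 29.7 to 31.0 points. No replicate could be left out, with 1 library a group. No paired analysis was possible because each group is 1 library, so the 2 groups share fewer than 2 replicate numbers. Depth limits astrocytes and OPCs most, with 1767850 and 1677286 UMIs at 14 dpi.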

Other observations

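A few genes differed the same way in nearly every class. Of all considered genes, 7 were called higher in all 5 classes and 3 lower, and 16 and 8 in 4 classes. The classes share their 2 libraries, so this is a description of those libraries. SPATA5L1, which encodes an ATPase of ribosome assembly, was at 7.42 and 16.9 CPM in intact lumbar and 14 dpi microglia, 10.5 and 22.3 in oligodendrocytes, 7.74 and 17.5 in neurons, 7.89 and 28.3 in astrocytes, and 8.74 and 23.8 in OPCs. The level was about alike across the classes on each side. NLRC5, the activator of class I MHC genes, was at 13.6 and 84.3 CPM in microglia, 0.672 and 11.8 in oligodendrocytes, and 17.2 and 55.4 in astrocytes. PURA, a DNA- and RNA-binding protein gene, was lower, at 31.9 and 9.85 CPM in microglia, 22.4 and 9.07 in oligodendrocytes, and 21.4 and 9.58 in neurons. C1H1orf131 was at 45.6 and 20.1 CPM in microglia and 28.6 and 10.1 CPM in neurons.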
